A study of Saccharomyces cerevisiae with 12 samples.

Results

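The *tup1 cyc8* double deletion strain was compared with wt by RNA-seq, in 6 of the 12 libraries of the series, 3 labelled as biological replicates of each strain. The other 6 libraries, from single mutants of *TUP1* or *CYC8*, are used below only where the double mutant is set beside them. Both strains are *S. cerevisiae* BY4741, a haploid laboratory strain of mating type a whose own *HIS3*, *LEU2*, *MET15* and *URA3* genes are nonfunctional, in wt and in the mutants. The double mutant carries tup1::KAN and cyc8::URA3, so it alone among the sequenced strains has a *URA3* marker, while the single mutants carry tup1::KAN or cyc8::KAN. All cultures were in log phase in YPD, a rich medium, with 2% glucose, and were collected at an OD600 of 0.6 to 0.8. The question of the comparison is which genes change when both subunits of the Tup1-Cyc8 complex are missing.

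Tup1-Cyc8 is a co-repressor: it binds no DNA sequence itself and is brought to promoters by DNA-binding repressors such as Mig1 for glucose-repressed genes, Rox1 for hypoxic genes and Rfx1 (Crt1) for DNA damage genes. Cyc8, also called Ssn6, is the subunit that contacts many of these repressors, and Tup1 binds histone tails, recruits histone deacetylases and hinders the transcription machinery. The complex is known for keeping genes for unused sugars, oxygen shortage, flocculation, sporulation and the other cell type silent in cells that grow on glucose.

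The deleted genes were read first, in counts per library for wt replicates 1, 2 and 3 and then *tup1 cyc8* replicates 1, 2 and 3, an order kept for all values below. *TUP1* (chrIII:260311-262452) had 8352, 8147 and 8828 counts in wt and 256, 321 and 204 in the double mutant, 4.36% of the wt level. *CYC8* (chrII:462870-465770) had 3518, 3246 and 3416 counts in wt and 1029, 1320 and 890 in the double mutant, 45.1% of the wt level (log2 fold change -1.15 ± 0.10 (SE), edgeR adjusted p = 3.3e-05). *CYC8* was thus downregulated but not near 0, and in the *cyc8* single mutant, which carries another marker, its log2 fold change against wt was -4.47. The tables hold 1 value per gene, so they do not show which part of *CYC8* the remaining reads come from. *URA3*, the marker of the double mutant, had 0, 1 and 0 counts in wt and 626, 687 and 411 in *tup1 cyc8*. *LEU2* and *MET17* (the *MET15* gene) had 0 counts in all 6 libraries. The a-cell genes *MFA2*, for a-factor, and *STE2*, for the receptor of the partner's pheromone, were present in both strains, at 401, 425 and 467 CPM and 473, 538 and 490.0 CPM in wt and 834, 579 and 672 CPM and 416, 299.5 and 306 CPM in *tup1 cyc8*, and *MF(ALPHA)2* of alpha cells had at most 2.18 CPM in any library. The 4 alpha-specific genes were not all so low, and their mean levels summed to 36.8 CPM in wt and 39.6 CPM in *tup1 cyc8*. Of the 3 tested none was called, and *SAG1* had a log2 fold change of 0.17.

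Between 14854146 and 15520064 reads were counted on named genes in the wt libraries and between 12643361 and 16874435 in *tup1 cyc8*. The strains separated on the first principal component, which held 91.9% of the variance, and wt replicate 3 stood apart from the other wt libraries on the second, which held 3.67%. Levels below are CPM, counts per 1e6 counts, scaled by TMM, edgeR's correction for a change in composition. The genes called upregulated below took 6.88% to 7.96% of the counts in wt and 31.2% to 32.5% in *tup1 cyc8*, so the scaling bears on every change: all genes tested had a median log2 fold change of -0.03 with TMM and -0.50 with library size alone. Each library holds RNA of a whole culture, so a change in every cell and a change in some of the cells cannot be told apart.

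A gene was called upregulated or downregulated where its level changed at least 2-fold and edgeR's quasi-likelihood test gave it a p of 0.01 or less after adjustment over the 5942 genes tested. Of these, 824 (13.9%) were upregulated and 112 (1.88%) were downregulated. The upregulated genes had a median log2 fold change of 1.93, and 400 of them rose at least 4-fold and 152 at least 16-fold. The downregulated genes had a median of -1.23, with 13 lower at least 4-fold. In none of these called genes did the 3 values of one strain overlap those of the other, which the limits for a call largely ensure, so it adds no support. The upregulated genes were mostly low in wt, with a median of 12.9 CPM there and 72.9 CPM in the double mutant, although 100 of them had at least 100 CPM in wt. Without genes repeated elsewhere in the genome 707 upregulated and 81 downregulated genes were left. By library size alone the counts became 556 upregulated and 753 downregulated, since all log2 fold changes move down together.

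**Figure D1:**
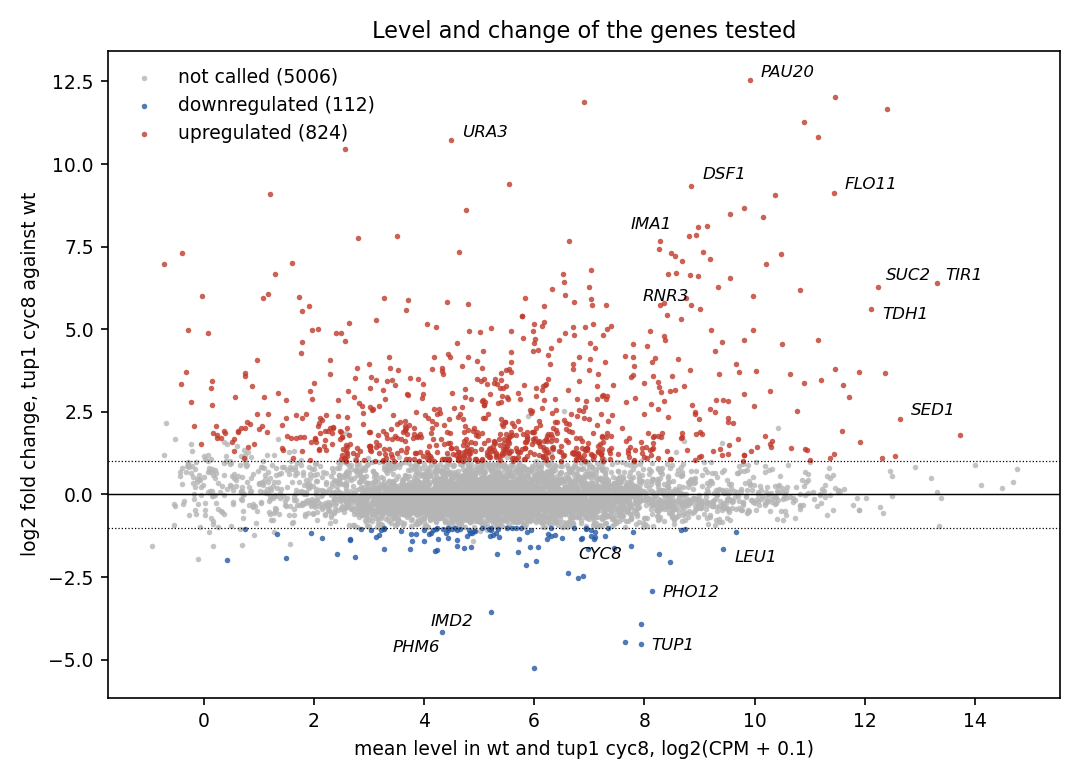
Log2 fold change of *tup1 cyc8* against wt (y axis) by mean level in both strains, as log2(CPM + 0.1) (x axis), for the 5942 genes tested; the 824 upregulated genes are red, the 112 downregulated genes blue and dotted lines mark a log2 fold change of 1 and -1. The red points reach 12.54 (*PAU20*), while only 13 blue points lie at or under -2.

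The genes were grouped by function in 62 lists, and the number of members called is given beside the 13.9% upregulated and 1.88% downregulated among all genes tested. These lists are described and not tested. Upregulated members were many in lists of the cell surface, of sugars other than glucose, of respiration and reserve carbohydrates, of oxygen shortage and of thiamine synthesis. Downregulated members were mostly found in the lists of rRNA processing, phosphate starvation and Ty elements.

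**Figure D2:**
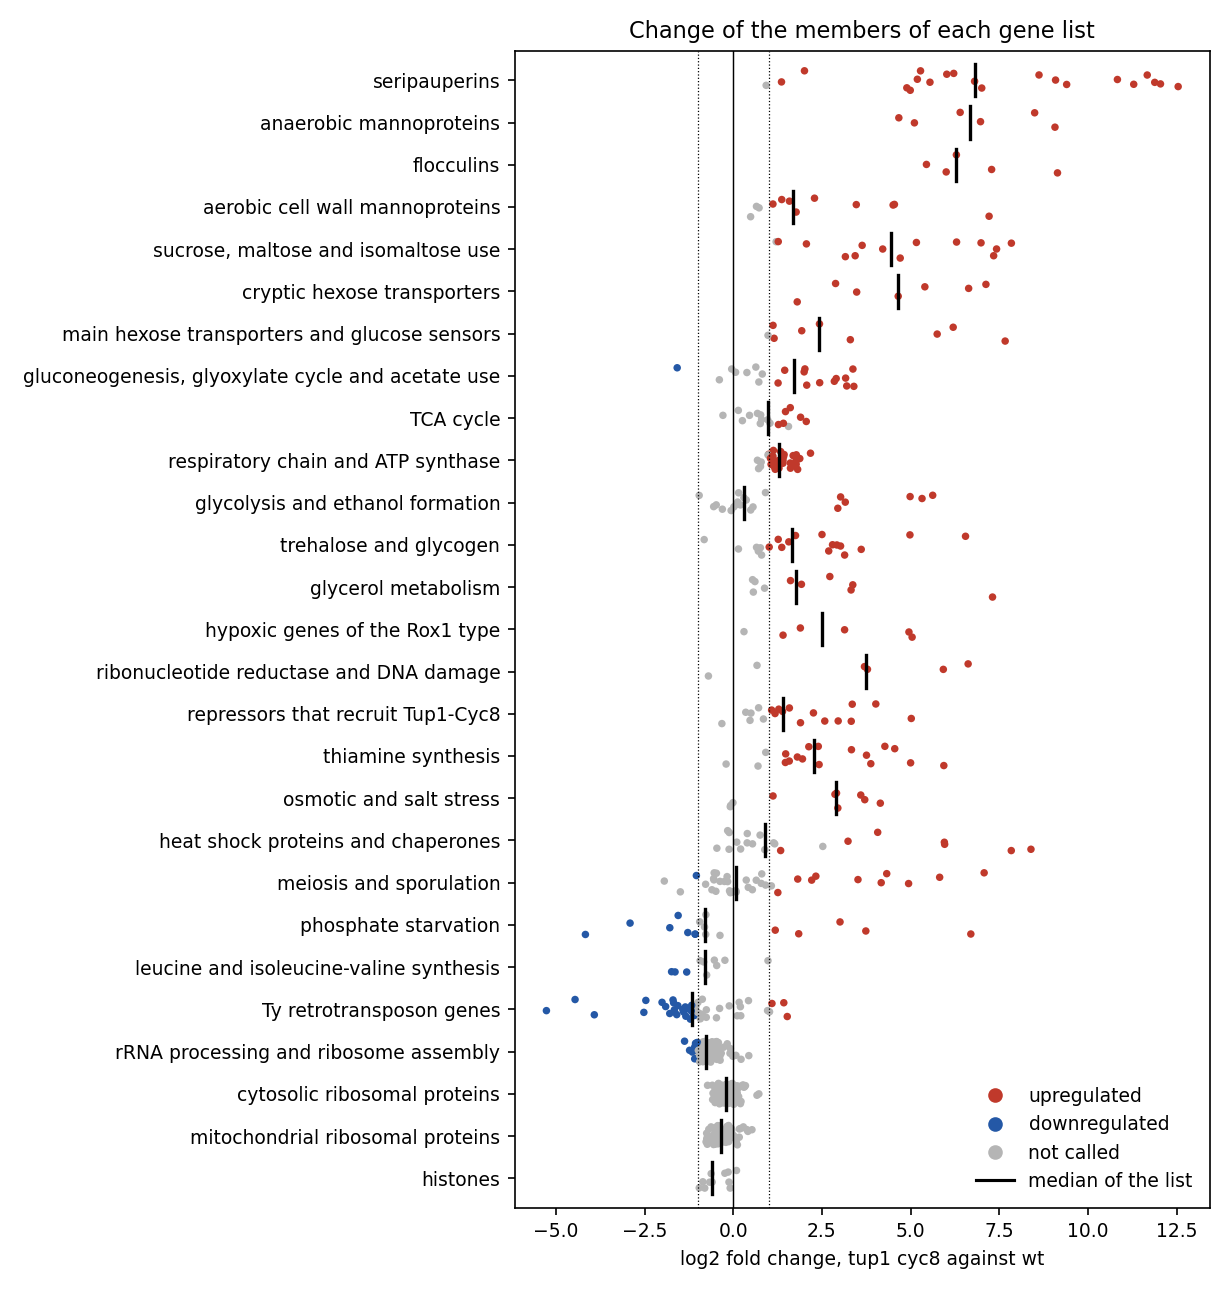
Log2 fold change of *tup1 cyc8* against wt (x axis) for each tested member of 27 gene lists (y axis), with upregulated members in red, downregulated members in blue, members not called in grey and the median of each list as a black bar. The 3 lists at the top have medians above 6, and the rRNA processing list lies to the left of 0 with a median of -0.77.

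Flocculins are lectins of the cell wall that bind mannose chains of neighbouring cells, and all 5 flocculin genes were upregulated, with a median log2 fold change of 6.29. *FLO11* (chrIX:389572-393675), which codes for the adhesin of filamentous and invasive growth, had 10.7, 11.1 and 7.65 CPM in wt and 5474, 5532 and 5584 CPM in *tup1 cyc8* (log2 fold change 9.14 ± 0.21 (SE), edgeR adjusted p = 5.0e-08). The 3 double mutant values of *FLO11* lay close together and far above wt. *FLO1*, the main flocculation gene, had 19.1, 21.3 and 14.5 CPM in wt and 3105, 2433 and 2999.8 CPM in *tup1 cyc8* (log2 fold change 7.28 ± 0.22 (SE), edgeR adjusted p = 1.0e-07). *FLO9*, *FLO5* and *FLO10* had log2 fold changes of 6.29 ± 0.16, 6.0 ± 0.23 and 5.45 ± 0.38. These genes share repeated stretches, so the split of reads among them is uncertain, but together they took 0.00861% to 0.0118% of the counts in wt and 0.980% to 1.14% in the double mutant.

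The seripauperins and the DAN and TIR mannoproteins are wall proteins that yeast makes in place of its usual ones when oxygen is short or the cold sets in. Of 21 seripauperin genes tested, 20 were upregulated (median 6.80), or 7 where at least 10 counts in every library were required, and the family went from 0.00178% to 0.00331% of the counts to 1.75% to 2.78%. All 21 hold stretches repeated in other members, so values of single *PAU* genes are uncertain. All 6 anaerobic mannoprotein genes rose (median 6.68). *TIR1* (chrV:175248-176012) had the largest gain in CPM of all genes, with 310.2, 286 and 118 CPM in wt and 21366, 18287 and 20476 CPM in *tup1 cyc8* (log2 fold change 6.40 ± 0.40 (SE), edgeR adjusted p = 5.8e-06). wt replicate 3 was the lowest of the wt libraries for *TIR1*, yet the strains stayed far apart. *DAN1*, a gene of growth without oxygen, had 6.48, 7.27 and 1.03 CPM in wt and 3032, 2073 and 2819 CPM in *tup1 cyc8* (log2 fold change 9.07 ± 0.66), and *TIR2* had 4.96, 4.25 and 3.20 CPM in wt and 1784, 1162 and 1535 CPM in *tup1 cyc8* (8.49 ± 0.27).

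The usual wall proteins of aerobic growth rose as well, although less. Of 12 aerobic mannoprotein genes, 9 were upregulated (6 with library size alone). *SED1*, the most abundant wall protein of resting cells, had 1910.3, 1482 and 3096 CPM in wt and 7999, 12507 and 11238 CPM in *tup1 cyc8* (log2 fold change 2.29 ± 0.29 (SE), edgeR adjusted p = 3.9e-04). *PIR3*, of a family linked to wall glucan, had 5.47, 5.65 and 4.07 CPM in wt and 709, 762 and 779.8 CPM in *tup1 cyc8* (7.21 ± 0.17), and *CWP1* had 62.96, 48.5 and 247 CPM in wt and 2620.1, 2933 and 2792 CPM in *tup1 cyc8* (4.54 ± 0.62), with wt replicate 3 above the other wt libraries. *CCW12*, already at high level, had 7607, 7916 and 8087 CPM in wt and 9569.6, 10914 and 12679 CPM in *tup1 cyc8* (log2 fold change 0.49, edgeR adjusted p = 0.017) and was not called. The yapsin protease genes *YPS6* and *YPS3* rose by 5.08 and 2.43 on the log2 scale, and 5 of 11 genes of yapsins and glucanosyltransferases were upregulated. Of wall genes outside the lists, chosen after their values were seen, the glucanase genes *SCW10* and *EXG1* rose by 2.53 and 1.62.

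**Figure D3:**
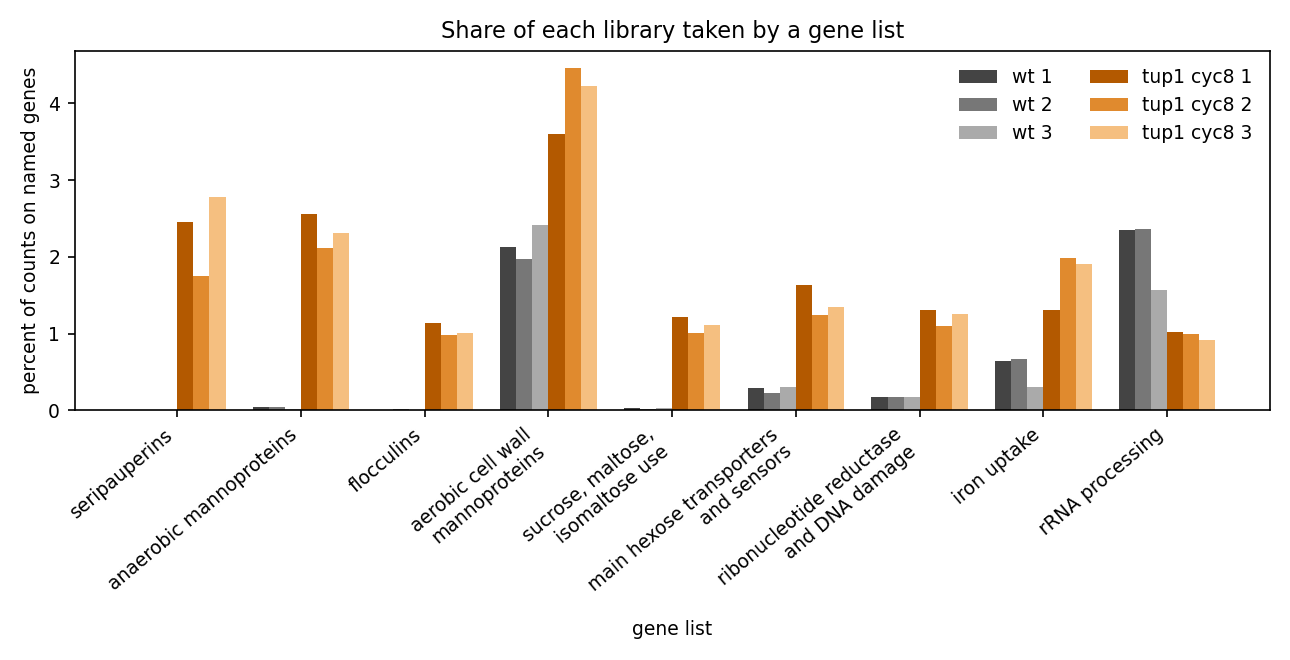
Percent of the counts on named genes (y axis) taken by each of 9 gene lists (x axis), with 1 bar for each of the 3 wt libraries (grey) and the 3 *tup1 cyc8* libraries (orange). Anaerobic mannoproteins went from at most 0.0461% in wt to at least 2.11% in *tup1 cyc8*, and rRNA processing genes from at least 1.57% to at most 1.02%. The shares are not TMM-scaled, and with TMM the rRNA processing genes summed to 17758 CPM in wt and 11506 CPM in *tup1 cyc8*.

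Genes of sucrose, maltose and isomaltose use rose in the double mutant, where 13 of 14 were upregulated (median 4.46). *SUC2* (chrIX:37385-38983), which codes for invertase, had 117, 124 and 123 CPM in wt and 10253, 8361 and 10039 CPM in *tup1 cyc8* (log2 fold change 6.29 ± 0.16 (SE), edgeR adjusted p = 5.6e-08). Invertase splits sucrose outside the cell, and the 3 values of its gene in each strain lay close together and far from those of the other. The isomaltase gene *IMA1* had 4.28, 3.75 and 4.78 CPM in wt and 1030.5, 871 and 1037 CPM in *tup1 cyc8* (7.84 ± 0.17). *IMA2*, of the same family, had 6.48, 7.61 and 5.59 CPM in wt and 1109, 957 and 1124 CPM in *tup1 cyc8* (7.34 ± 0.18). *MAL12* and *MAL32*, a nearly identical pair of maltase genes, rose by 7.42 and 5.16, with an uncertain split of reads between them. The maltose permease genes *MAL11* and *MAL31* rose by 4.21 and 3.16, and the activator gene *MAL33* by 3.63. In the galactose regulon, 2 of 7 genes were upregulated (28.6%, against 13.9% of all genes), *GAL3* (2.11 ± 0.15) and the activator gene *GAL4* (1.88 ± 0.11). *GAL1*, for galactokinase, stayed low at 4.90, 5.82 and 3.58 CPM in wt and 6.81, 6.08 and 7.94 CPM in *tup1 cyc8* (edgeR adjusted p = 0.06).

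Mig1, the repressor of glucose-repressed genes, binds a GC-rich core that is written here as CCCCNC. The letters were searched on both strands of the 600 bases before the start codon. They were found upstream of 13 of 14 genes of this list, of 45.3% of the upregulated genes and of 27.7% of all genes tested. A match is a description and not a binding site shown by these data. The stretches of *SUC2* (chrIX:36876-36995, plus strand) and of the hexose transporter gene *HXT2* (chrXIII:287560-287679, plus strand) that hold 2 matches each are shown 5′ to 3′ towards the gene in the R64 build, because these genes gained 9429 and 5102 CPM, with the matches to either strand in capitals.
SUC2: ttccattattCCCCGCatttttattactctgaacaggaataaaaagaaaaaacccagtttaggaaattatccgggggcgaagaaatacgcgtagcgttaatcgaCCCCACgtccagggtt
HXT2: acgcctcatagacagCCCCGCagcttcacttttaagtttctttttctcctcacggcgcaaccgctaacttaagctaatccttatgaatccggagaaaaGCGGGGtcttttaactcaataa

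Genes for hexose transporters of low and of high affinity were upregulated. Of 9 genes of main hexose transporters and glucose sensors, 8 were upregulated (6 with library size alone), with a median of 2.43. *HXT4*, a high-affinity transporter gene repressed by ample glucose, had 31.3, 18.9 and 95.03 CPM in wt and 4548, 2762 and 3357 CPM in *tup1 cyc8* (log2 fold change 6.20 ± 0.64 (SE), edgeR adjusted p = 1.2e-04). *HXT2* had 604, 360.4 and 764 CPM in wt and 5780.3, 5356 and 5896 CPM in *tup1 cyc8* (3.30 ± 0.26). The low-affinity transporter genes *HXT3* and *HXT1*, which wt uses on ample glucose, rose too, by 1.93 and 1.15, the latter not past the fold limit without *tup1 cyc8* replicate 1 (0.88). *HXT6* and *HXT7* are nearly identical and had log2 fold changes of 7.66 and 5.75. The sensor gene *SNF3* was upregulated (1.12 ± 0.14), but not without wt replicate 2 (0.99), and *RGT2*, the other sensor, had a log2 fold change of 0.98 and passed the limit when wt replicate 1 or 2 or *tup1 cyc8* replicate 1 or 3 was left out (1.01 to 1.07). Of 9 cryptic transporter genes 7 had enough counts to be tested, and all 7 were upregulated. The 9 summed to only 36.8 CPM in wt, and a gene near 0 there can be tested through the double mutant alone. The share among tested members is thus partly set by that filter. The 7 were led by *HXT17* (9.86, 7.89 and 7.16 CPM in wt and 1475, 802 and 1195 CPM in *tup1 cyc8*) and *HXT13* (6.63), which resemble each other. Sugar alcohol enzymes were raised too, in the mannitol dehydrogenase genes *DSF1* and *MAN2* and the sorbitol dehydrogenase genes *SOR1* and *SOR2*, each a pair of similar genes, and all 4 rose by 3.57 to 9.35 on the log2 scale. This list of 4 was put together after its values were seen.

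In glycolysis the genes that rose were minor or glucose-repressed isoforms: 6 of 21 genes were upregulated, and the main isoforms were not. *TDH1*, for the glyceraldehyde phosphate dehydrogenase of resting cells, had 121, 129 and 280.2 CPM in wt and 8836, 8436 and 8809 CPM in *tup1 cyc8* (log2 fold change 5.62 ± 0.37 (SE), edgeR adjusted p = 7.5e-06). *PDC5*, a spare pyruvate decarboxylase gene, had 20.01, 21.04 and 18.1 CPM in wt and 823, 761 and 782 CPM in *tup1 cyc8* (5.32 ± 0.12). *HXK1*, a hexokinase gene that ample glucose represses, had 19.2, 11.7 and 154 CPM in wt and 1969, 1860.1 and 2025 CPM in *tup1 cyc8* (4.98 ± 0.94). *GLK1*, for glucokinase, had 149, 111 and 331 CPM in wt and 1434, 1793 and 1589 CPM in *tup1 cyc8* (3.03 ± 0.38). wt replicate 3 was the highest wt library for both, and without *tup1 cyc8* replicate 3 the adjusted p of *HXK1* was 0.013 at a log2 fold change of 4.97. *HXK2*, the main hexokinase gene on glucose, had 2058, 2087 and 2074 CPM in wt and 3321, 2608 and 3226 CPM in *tup1 cyc8* (log2 fold change 0.56, edgeR adjusted p = 0.007).

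Respiratory genes rose together by modest amounts. Of 34 genes of the respiratory chain and ATP synthase, 29 were upregulated and all 34 were higher at an adjusted p of at most 0.01, against 21% of all genes. The median was 1.28 with TMM and 0.80 with library size alone, under which 10 members passed the limits. *QCR10*, of the bc1 complex, had 12.3, 13.04 and 26.9 CPM in wt and 103, 70.9 and 63.3 CPM in *tup1 cyc8* (log2 fold change 2.18 ± 0.32 (SE), edgeR adjusted p = 8.4e-04). *ATP2*, for the beta subunit of ATP synthase, had 600.3, 625 and 803 CPM in wt and 1846, 1823 and 1812 CPM in *tup1 cyc8* (1.43 ± 0.14). *NDE1*, for an NADH dehydrogenase that faces the cytosol, had 189, 198 and 185 CPM in wt and 659.7, 550.4 and 649 CPM in *tup1 cyc8* (1.70 ± 0.11). In the TCA cycle 6 of 17 genes were upregulated (3 with library size alone), 4 of them the subunits of succinate dehydrogenase, *SDH1*, *SDH2*, *SDH3* and *SDH4* (log2 fold changes of 2.06, 1.90, 1.27 and 1.61). Aconitase, *ACO1*, had 199, 217 and 625 CPM in wt and 1105, 997 and 961 CPM in *tup1 cyc8* and was not called (edgeR adjusted p = 0.013), with wt replicate 3 far above the other wt libraries. It passed without that library (log2 fold change 2.30, adjusted p = 3.2e-06).

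Of 20 genes of gluconeogenesis, the glyoxylate cycle and acetate use, 12 were upregulated and 1 was downregulated. Among those not called, *ICL1* of the glyoxylate cycle and *MDH2* had log2 fold changes of 0.07 and -0.04. *ADR1*, for an activator of genes of non-fermentable carbon, had 46.8, 41.7 and 68.8 CPM in wt and 490.2, 559 and 611 CPM in *tup1 cyc8* (3.40 ± 0.21). *CAT8*, for another such activator, had 13.5, 10.9 and 17.8 CPM in wt and 129, 118 and 132 CPM in *tup1 cyc8* (3.17 ± 0.18). *PCK1*, for the first committed enzyme of gluconeogenesis, stayed low in absolute terms with 5.47, 4.36 and 5.97 CPM in wt and 44.8, 56.5 and 43.95 CPM in *tup1 cyc8* (3.20 ± 0.16). *FBP1*, for fructose bisphosphatase, had 9.07, 8.06 and 7.87 CPM in wt and 14.1, 12.6 and 17.7 CPM in *tup1 cyc8* and did not reach the fold limit (log2 fold change 0.82, edgeR adjusted p = 0.0028). *JEN1*, for the lactate transporter, rose by 2.85 on the log2 scale.

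Reserve carbohydrates showed a broad rise, with 14 of 20 trehalose and glycogen genes upregulated (11 with library size alone). *GAC1*, for the subunit that directs a phosphatase to glycogen synthase, had 15.7, 11.8 and 19.97 CPM in wt and 1645, 1224 and 1574 CPM in *tup1 cyc8* (log2 fold change 6.55 ± 0.25 (SE), edgeR adjusted p = 3.3e-07). Genes for both making and breaking glycogen rose: *GSY2*, a glycogen synthase gene, by 3.14, *GLC3*, the branching enzyme gene, by 2.92, and *GPH1*, the phosphorylase gene, with 21.9, 19.8 and 67.3 CPM in wt and 1039.8, 1329 and 1075 CPM in *tup1 cyc8*, by 4.98. *TPS2* of trehalose synthesis rose by 1.76, and its partner *TSL1* had 161, 93.7 and 306 CPM in wt and 861, 864 and 1453 CPM in *tup1 cyc8*. For these 6 genes wt replicate 3 was the highest wt library. Of 10 glycerol genes, 6 were upregulated, among them *GPD1* and *GPP2* of glycerol synthesis (2.72 and 3.37), the uptake gene *STL1* (3.32) and *DAK2*, for a dihydroxyacetone kinase, with 4.51, 5.09 and 3.91 CPM in wt and 729, 756 and 657 CPM in *tup1 cyc8* (7.31 ± 0.16). In the pentose phosphate pathway 4 of 11 genes rose, and these 4, *SOL4*, *NQM1*, *GND2* and *TKL2*, are the minor copies of their enzymes. *TKL2* had 18.9, 18.2 and 15.9 CPM in wt and 47.3, 206 and 57.7 CPM in *tup1 cyc8*, with *tup1 cyc8* replicate 2 above the others. Its log2 fold change was 2.56, or 1.57 without that library, and it was not called when any 1 wt library was left out (adjusted p of 0.013 to 0.015). Of 4 water channel genes, a list put together after its values were seen, 3 rose, among them *AQY1* and *AQY3* (6.42 and 4.67).

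**Figure D4:**
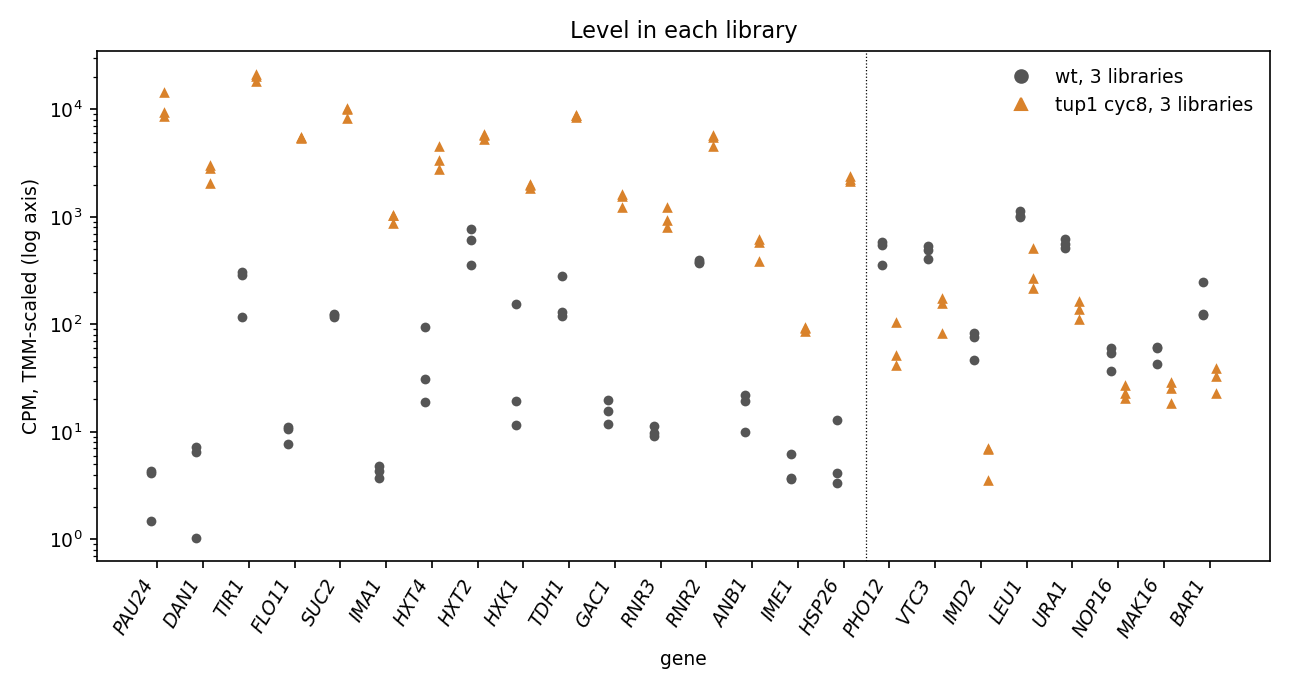
Level of 24 genes (x axis) in each library, in TMM-scaled CPM on a log axis (y axis), with circles for the 3 wt libraries and triangles for the 3 *tup1 cyc8* libraries; the 16 genes to the left of the dotted line rose and the 8 to the right fell. No circle overlaps a triangle of the same gene, and *HXK1* and *HSP26* show wt replicate 3 above the other 2 circles.

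Rox1 keeps hypoxic genes off when oxygen and heme are present, and 5 of 6 genes of this type were upregulated. *ANB1* (chrX:524908-525381), for the hypoxic form of the translation factor eIF5A, had 19.5, 22.1 and 9.88 CPM in wt and 627, 384 and 582 CPM in *tup1 cyc8* (log2 fold change 4.95 ± 0.34 (SE), edgeR adjusted p = 1.0e-05). *CYC7*, for the minor cytochrome c, had 2.03, 1.17 and 3.31 CPM in wt and 73.6, 75.4 and 66.9 CPM in *tup1 cyc8* (5.04 ± 0.27). *HEM13*, for coproporphyrinogen oxidase of heme synthesis, had 313, 300.0 and 151 CPM in wt and 3149.8, 1404 and 2174 CPM in *tup1 cyc8* (3.14 ± 0.37), the lowest wt value in replicate 3. *AAC3* and *COX5B*, for hypoxic forms of the ADP/ATP carrier and of a cytochrome oxidase subunit, rose by 1.89 and 1.40, and *COX5B* was not called when any 1 library other than wt replicate 3 was left out (1.18 to 1.44, adjusted p of 0.012 to 0.021). The stretch upstream of *ANB1* (chrX:525582-525701, minus strand) is shown because it holds 3 of the 4 matches to the Rox1 core ATTGTT, in capitals, in the 600 bases before the start codon. These letters are common: 54.8% of all genes tested have a match in that window.
ANB1: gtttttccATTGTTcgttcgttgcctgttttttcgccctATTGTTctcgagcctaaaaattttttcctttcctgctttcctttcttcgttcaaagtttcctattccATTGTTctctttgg

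Of 25 ergosterol genes, 5 were upregulated (20%, against 13.9% of all genes), and the median of the list was 0.07, or -0.41 with library size alone. The 5 were *UPC2*, for a sterol-responsive activator (2.09), *ERG25* (1.77), *ERG28* (1.71), *ERG3* (1.53) and *ERG1* (1.44). The last of these codes for the oxygen-dependent squalene epoxidase. *ERG11*, for the target of azole drugs, had 756, 813 and 522 CPM in wt and 1643, 1023 and 1480.3 CPM in *tup1 cyc8* and stood just under the fold limit (0.99), which it passed without wt replicate 2 (1.11) or *tup1 cyc8* replicate 2 (1.16). In sphingolipid synthesis 4 of 24 genes were upregulated (16.7%, near the 13.9% of all genes, and 2 of 24 with library size alone), among them the ceramidase gene *YPC1* (2.81) and the hydroxylase gene *SCS7* (1.86).

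Ribonucleotide reductase makes deoxyribonucleotides, and its genes are induced by DNA damage when Rfx1 leaves their X boxes. *RNR3* (chrIX:238099-240708), for the damage-induced large subunit, had 9.69, 11.3 and 9.17 CPM in wt and 1227, 812 and 929 CPM in *tup1 cyc8* (log2 fold change 6.62 ± 0.21 (SE), edgeR adjusted p = 1.4e-07). *RNR2*, for a small subunit, had 369, 379 and 397 CPM in wt and 5731, 4551 and 5478 CPM in *tup1 cyc8* (3.78 ± 0.14). *RNR4*, for the other small subunit, had 547, 545 and 543 CPM in wt and 7103, 6221 and 7899 CPM in *tup1 cyc8* (3.70 ± 0.14). *HUG1*, for a small inhibitor of the enzyme, had 4.68, 4.42 and 3.58 CPM in wt and 262, 205 and 302 CPM in *tup1 cyc8* (5.92 ± 0.20). In all 4 the double mutant libraries lay far above every wt library. *RNR1*, for the main large subunit, had 501, 545 and 524 CPM in wt and 966, 738 and 794 CPM in *tup1 cyc8* and missed the fold limit (log2 fold change 0.67 ± 0.13 (SE), edgeR adjusted p = 0.0029). *DIN7*, a damage-induced nuclease gene, had 13.3, 12.8 and 8.25 CPM in wt and 4.96, 8.24 and 7.94 CPM in *tup1 cyc8* and was not called (log2 fold change -0.70, edgeR adjusted p = 0.042). The 4 upregulated genes each hold the X box core GTTGCC upstream, which 16.7% of all genes tested do. The stretches are at chrX:391893-392012, plus strand (*RNR2*), chrIX:240917-241036, minus strand (*RNR3*), chrVII:856625-856744, minus strand (*RNR4*) and chrXIII:158514-158633, plus strand (*HUG1*), with matches to either strand in capitals.
RNR2: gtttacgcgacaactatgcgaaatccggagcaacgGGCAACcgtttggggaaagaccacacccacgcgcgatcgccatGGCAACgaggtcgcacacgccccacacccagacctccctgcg
RNR3: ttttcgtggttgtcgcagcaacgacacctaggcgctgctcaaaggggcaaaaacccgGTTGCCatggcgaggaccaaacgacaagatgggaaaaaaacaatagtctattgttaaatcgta
RNR4: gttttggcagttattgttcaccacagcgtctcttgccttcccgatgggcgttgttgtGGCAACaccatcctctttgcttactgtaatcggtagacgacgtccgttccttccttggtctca
HUG1: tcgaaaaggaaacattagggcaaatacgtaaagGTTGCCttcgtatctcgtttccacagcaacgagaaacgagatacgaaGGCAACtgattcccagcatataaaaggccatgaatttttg

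Genes for the DNA-binding repressors that recruit Tup1-Cyc8 were themselves raised: 13 of 19 were upregulated (9 with library size alone), and none was downregulated. *XBP1*, for a stress-induced repressor of cyclin genes, had 8.62, 8.17 and 11.9 CPM in wt and 226, 340.3 and 366 CPM in *tup1 cyc8* (log2 fold change 5.02 ± 0.24 (SE), edgeR adjusted p = 1.3e-06). *NRG1*, for a repressor of glucose-repressed and filamentation genes, had 39.01, 32.8 and 25.8 CPM in wt and 495, 554 and 533 CPM in *tup1 cyc8* (4.02 ± 0.17). *ROX1* and *RFX1*, whose targets are described above, rose by 1.58 and 1.39, *SUT1* by 3.33, *YAP6* by 3.35 and *CIN5* by 2.96. *MIG1* and *MIG2* had log2 fold changes of 0.72 and 0.85 (edgeR adjusted p = 0.057 and 0.017) and were not called. *MIG1* passed the limits without wt replicate 3 (1.09). Among 23 genes of histone deacetylases and the Swi/Snf remodeller, partners and opponents of the complex, only *SNF11* was called with TMM, downregulated with 29.8, 25.9 and 26.3 CPM in wt and 8.59, 12.4 and 11.04 CPM in *tup1 cyc8* (-1.35 ± 0.15). With library size alone 6 of the 23 were downregulated and 22 were lower by adjusted p.

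Most thiamine and biotin genes rose, while the other nutrient lists below moved in part or in both directions. In thiamine synthesis and uptake 15 of 18 genes were upregulated (median 2.26). *THI4*, for the thiazole-forming protein, had 2.59, 1.57 and 1.30 CPM in wt and 76.3, 157 and 101 CPM in *tup1 cyc8* (log2 fold change 5.93 ± 0.36 (SE), edgeR adjusted p = 4.8e-06), and the transporter gene *THI7* had 60.7, 69.04 and 59.2 CPM in wt and 1042, 742 and 768 CPM in *tup1 cyc8* (3.76 ± 0.17). *THI2*, for an activator of the pathway, rose by 3.88. *THI5*, *THI12* and *THI13* are near-identical copies. In biotin synthesis and uptake 4 of 5 genes rose, by 1.70 to 2.88 on the log2 scale, led by *BIO5*.

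Of 27 genes for poor nitrogen sources, 11 were upregulated and 1 was downregulated. *GAP1* (chrXI:515063-516871), for the general amino acid permease that good nitrogen sources shut off, had 12.1, 10.9 and 11.7 CPM in wt and 711, 505 and 704 CPM in *tup1 cyc8* (log2 fold change 5.79 ± 0.18 (SE), edgeR adjusted p = 1.3e-07). *PUT4*, for the proline permease, had 3.16, 3.02 and 2.28 CPM in wt and 189, 167 and 198 CPM in *tup1 cyc8* (6.03 ± 0.16). *GDH1*, for glutamate dehydrogenase, had 139, 139 and 182 CPM in wt and 1201, 1013 and 1117 CPM in *tup1 cyc8* (2.86 ± 0.15), while *GLT1*, for glutamate synthase, was the downregulated member, with 1031, 1054 and 1234 CPM in wt and 652, 435 and 431 CPM in *tup1 cyc8* (-1.13 ± 0.18). Of 21 amino acid and peptide permease genes, 5 rose (23.8%, against 13.9% of all genes), led by *ALP1* (3.75) and the peptide permease gene *PTR2* (2.17). *DIP5*, for the dicarboxylic amino acid permease, fell, with 81.3, 82.97 and 118 CPM in wt and 18.1, 23.2 and 22.7 CPM in *tup1 cyc8* (-2.14 ± 0.18). Sulfate and methionine genes had 7 of 23 members upregulated and 1 downregulated, and *tup1 cyc8* replicate 2 was the highest library for *MET3*, for ATP sulfurylase (32.1, 29.5 and 29.7 CPM in wt and 42.7, 126 and 68.7 CPM in *tup1 cyc8*), and *MET10*, for a sulfite reductase subunit (65.6, 68.1 and 68.4 CPM in wt and 98.3, 267 and 158 CPM in *tup1 cyc8*). Without that library their log2 fold changes went from 1.38 and 1.37 to 0.87 and 0.93. The count of the list depended on single libraries, from 2 without *tup1 cyc8* replicate 3 to 10 without replicate 1, and was 3 without *tup1 cyc8* replicate 2 or without any 1 wt library. In arginine metabolism 3 of 12 genes rose (25%, against 13.9% of all genes), *ARG3* (1.86), *ARG5,6* (1.57) and *ARG7* (1.27).

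Iron uptake by siderophores and at the surface had 6 of 19 genes upregulated. *FIT3*, for a mannoprotein that holds siderophores in the wall, had 997, 1059 and 244 CPM in wt and 7462, 10438 and 11634 CPM in *tup1 cyc8* (log2 fold change 3.68 ± 0.52 (SE), edgeR adjusted p = 6.9e-04), and *ARN1*, for a siderophore transporter, had 72.1, 85.9 and 41.5 CPM in wt and 475, 589 and 632 CPM in *tup1 cyc8* (3.09 ± 0.27). wt replicate 3 was the lowest wt library for these genes. *FRE4*, of the ferric reductase family, had 63.5, 71.8 and 24.7 CPM in wt and 1269, 1309 and 1341 CPM in *tup1 cyc8* (4.61 ± 0.38) and was the only 1 of 8 members called. Only 3 iron uptake genes were upregulated without wt replicate 1 or without *tup1 cyc8* replicate 2 or 3. *GEX1*, for a glutathione exporter induced by low iron, had 0, 0 and 0 counts in wt and 166, 102 and 156 in *tup1 cyc8*, so its level was at least 69.7-fold higher, taking 3 counts per wt library as the limit of detection. It is nearly identical to *GEX2*.

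Phosphate starvation genes went in both directions, 5 of 17 up and 7 down. *PHO89*, for the sodium-phosphate transporter, had 172, 155 and 111 CPM in wt and 1448, 2098 and 2289 CPM in *tup1 cyc8* (3.74 ± 0.24), and *PHM7*, of unknown function, rose by 6.70. The downregulated genes include 2 of the vacuolar polyphosphate polymerase, *VTC3* with 492, 539 and 406 CPM in wt and 82.7, 157 and 177 CPM in *tup1 cyc8* (log2 fold change -1.79 ± 0.27 (SE), edgeR adjusted p = 8.9e-04) and *VTC4* (-1.07), the regulator genes *PHO81* (-1.07) and *SPL2* (-1.28), the alkaline phosphatase gene *PHO8* (-1.55), and *PHM6*, which fell from 43.3, 39.8 and 30.5 CPM to 2.01, 2.16 and 2.13 CPM (-4.17 ± 0.18). *PHO12*, an acid phosphatase gene nearly identical to *PHO11*, had 549, 580.4 and 354 CPM in wt and 42.2, 52.0 and 104 CPM in *tup1 cyc8* (-2.91 ± 0.35). *PHO84*, for the high-affinity transporter, had 1899, 2095 and 1553 CPM in wt and 903, 1113 and 1224 CPM in *tup1 cyc8* with a log2 fold change of -0.78 (edgeR adjusted p = 0.0045), short of the fold limit with TMM and past it with library size alone. *VTC4* did not reach the fold limit without *tup1 cyc8* replicate 1 (-0.89), nor *PHO81* without wt replicate 3 (-0.94). The Pho4 core CACGTG lies upstream of 14 of the 17 genes, against 7.25% of all genes tested.

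Stress genes rose in part. Of 21 heat shock and chaperone genes, 7 were upregulated. *HSP26*, for a small heat shock protein, had 3.33, 4.14 and 12.8 CPM in wt and 2265, 2146 and 2416 CPM in *tup1 cyc8* (log2 fold change 8.39 ± 0.55 (SE), edgeR adjusted p = 8.3e-06), and *HSP12*, for a membrane-stabilising protein, had 1.18, 2.41 and 8.09 CPM in wt and 700.0, 1196 and 788 CPM in *tup1 cyc8* (7.84 ± 0.66). *HSP31* rose by 5.95. wt replicate 3 was the highest wt library for *HSP26* and *HSP12*. The chaperone genes *SSA3* and *SSA4* had log2 fold changes of 1.14 and 1.17 (edgeR adjusted p = 0.017 and 0.022) and were not called. *SSA3* passed without *tup1 cyc8* replicate 1 (1.38) and stood at 0.60 without replicate 2, and *SSA4* passed without wt replicate 3 (1.66). Of 21 antioxidant genes 7 rose, led by the cytosolic catalase gene *CTT1* (10.8, 7.94 and 12.5 CPM in wt and 239, 322 and 322 CPM in *tup1 cyc8*, 4.82 ± 0.21), and *GPX2*, for a glutathione peroxidase, fell (-1.81). Of 10 osmotic and salt stress genes 7 rose. Among these *GRE2*, for a reductase, had 57.3, 58.5 and 49.7 CPM in wt and 669, 639 and 691 CPM in *tup1 cyc8* (3.59 ± 0.12), and *ENA1*, for the sodium pump, rose by 4.15, although it shares most of its sequence with its neighbouring copies. Of 17 exporter genes 8 rose, led by *PDR15* with 65.8, 63.2 and 76.4 CPM in wt and 1801, 1555 and 1847 CPM in *tup1 cyc8* (4.66 ± 0.14) and the polyamine exporter gene *TPO2* (3.17). The stress response element CCCCT lies upstream of 60.3% of the upregulated genes and 40.1% of all genes tested.

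Meiosis and sporulation genes, which a vegetative haploid does not use, rose in part: 10 of the 37 tested, from a list of 41, were upregulated and 1 was downregulated. The median of the list was 0.08, or -0.38 with library size alone. *IME1*, for the master activator of meiosis, had 3.72, 3.64 and 6.24 CPM in wt and 91.7, 86.6 and 95.4 CPM in *tup1 cyc8* (log2 fold change 4.33 ± 0.20 (SE), edgeR adjusted p = 1.1e-06). *DIT1*, for an enzyme of the dityrosine layer of the spore wall, had 6.09, 6.04 and 6.13 CPM in wt and 914, 899.9 and 644 CPM in *tup1 cyc8* (7.07 ± 0.19). *DIT2*, of the same layer, rose by 4.94, and *SPS100*, of spore wall maturation, rose by 5.82. Of 7 a-specific mating genes 2 fell: *BAR1*, for the protease that degrades alpha-factor, with 123, 126 and 245 CPM in wt and 39.02, 32.8 and 22.9 CPM in *tup1 cyc8* (-2.38 ± 0.31), and *MFA1*, for a-factor, with 117, 111 and 106 CPM in wt and 56.2, 53.4 and 29.3 CPM in *tup1 cyc8* (-1.26 ± 0.22). *SST2*, for the desensitiser of the pheromone pathway, fell as well (-1.60 ± 0.14), and was chosen after its values were seen. No cyclin or cell cycle regulator of 21 was called, and *CLN3*, a G1 cyclin gene, had a log2 fold change of 0.96 just under the limit, which it passed without wt replicate 1 (1.08) or *tup1 cyc8* replicate 1 (1.02).

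The subunits of the ribosome are made in the nucleolus. Of 111 genes of rRNA processing and ribosome assembly none was upregulated, 13 were downregulated and 71 were lower at an adjusted p of at most 0.01 with no fold limit, against 13.6% of all genes, and the median was -0.77. *UTP6*, of the small subunit processome, had 33.8, 41.9 and 29.04 CPM in wt and 13.7, 16.6 and 9.78 CPM in *tup1 cyc8* (log2 fold change -1.37 ± 0.20 (SE), edgeR adjusted p = 9.1e-04). *MAK16*, of large subunit assembly, had 61.1, 59.6 and 42.8 CPM in wt and 25.8, 29.1 and 18.4 CPM in *tup1 cyc8* (-1.15 ± 0.20). *NOP16*, of the same process, had 59.7, 54.6 and 36.6 CPM in wt and 27.3, 23.1 and 20.7 CPM in *tup1 cyc8* (-1.08 ± 0.19). wt replicate 3 was the lowest wt library for all 3, still above every double mutant library. The count turned on that library: 41 members were downregulated without wt replicate 3, and 6, 5 and 5 without wt replicate 1, wt replicate 2 and *tup1 cyc8* replicate 3. The count by adjusted p alone fell to 22, 30, 31, 32 and 13 without wt replicates 1 and 2 and *tup1 cyc8* replicates 1, 2 and 3. With library size alone 88 were downregulated, and with glmTreat, which tests against a 2-fold change, 0. *MAK16* did not reach the fold limit without *tup1 cyc8* replicate 3 (-0.98), and *NOP16* was not called without wt replicate 1 or *tup1 cyc8* replicate 2 or 3 (log2 fold changes of -0.94, -1.07 and -0.99). Genes of the same process outside the list, chosen after their values were seen, fell too, among them *ESF1* (-1.34), *PUF6* (-1.28) and *DHR2* (-1.25).

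Ribosome biogenesis genes are known for the PAC element, GATGAG, which is present upstream of 98 of the 111 genes (88.3%), of 52.7% of the downregulated genes and of 32.1% of all genes tested. Upstream stretches of *UTP6* (chrIV:1358975-1359034, minus strand), *MAK16* (chrI:101237-101296, minus strand) and *NOP16* (chrV:156671-156730, plus strand) are shown with the element in capitals.
UTP6: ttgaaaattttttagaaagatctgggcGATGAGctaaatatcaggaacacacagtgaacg
MAK16: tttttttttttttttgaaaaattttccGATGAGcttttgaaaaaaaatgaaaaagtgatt
NOP16: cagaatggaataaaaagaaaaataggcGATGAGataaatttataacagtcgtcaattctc

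Genes for the proteins of the ribosome were not called with TMM, while some were with library size alone. None of 137 cytosolic ribosomal protein genes was called (median -0.19), and 9 were lower and 1 higher by adjusted p alone, or 114 and 0 with library size alone, under which 5 were downregulated. The 9 became 1 without wt replicate 1 or 2 or *tup1 cyc8* replicate 1 or 3, 4 without *tup1 cyc8* replicate 2 and 14 without wt replicate 3. The unscaled share of the counts of these 137 genes was 13.5% to 14.01% in wt and 8.75% to 9.27% in the double mutant. With TMM their mean levels summed to 116140 CPM in wt and 106870 CPM in *tup1 cyc8*. None of 64 mitochondrial ribosomal protein genes was called, with 24 lower by adjusted p alone, a number between 4 and 13 without wt replicate 1 or 2 or any *tup1 cyc8* library. With library size alone 15 of them were downregulated and 52 were lower by adjusted p. None of 11 histone genes was called, with 6 lower by adjusted p alone (3 without wt replicate 2 or *tup1 cyc8* replicate 2). With library size alone 6 of them were downregulated and 9 were lower by adjusted p.

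Some genes for the synthesis of building blocks were downregulated, while most members of their lists were not called. Of 50 genes in a list of amino acid synthesis 3 fell and 2 rose, with *LYS1* up by 2.17. Of 12 pyrimidine genes 2 fell (median -0.007), and of 16 purine genes 2 fell (median -0.22). Of 12 phospholipid and inositol genes 1 fell and 1 rose, *INO1* (1.67). The pyrimidine, purine and phospholipid lists were put together after their values were seen. Of 10 leucine and isoleucine-valine genes, a list put together after its values were seen, 3 fell. *LEU1* (chrVII:476313-478652), for isopropylmalate isomerase, had the largest loss in CPM among the called genes, with 992, 1009 and 1139 CPM in wt and 220.0, 519 and 269 CPM in *tup1 cyc8* (log2 fold change -1.64 ± 0.29 (SE), edgeR adjusted p = 0.0023), and was not called without *tup1 cyc8* replicate 3 (adjusted p = 0.018). *LEU9* and the mitochondrial carrier gene *OAC1* fell, with log2 fold changes of -1.31 and -1.74, while *LEU4* had a log2 fold change of 0.98 and rose past the limit without wt replicate 3 (1.27) or *tup1 cyc8* replicate 1 (1.12). *URA1*, for dihydroorotate dehydrogenase of pyrimidine synthesis, had 561, 627 and 514 CPM in wt and 113, 165 and 137 CPM in *tup1 cyc8* (-2.03 ± 0.16), and *URA4* had 189, 186 and 179 CPM in wt and 61.01, 90.5 and 79.2 CPM in *tup1 cyc8* (-1.26 ± 0.15). The strains differ in the *URA3* marker of this pathway, whose part in this was not tested. *IMD2*, for IMP dehydrogenase of guanine nucleotide synthesis, had 75.9, 82.7 and 47.0 CPM in wt and 7.05, 3.58 and 6.97 CPM in *tup1 cyc8* (-3.57 ± 0.30). *IMD4*, for the same enzyme, had 611, 681 and 427 CPM in wt and 279.7, 266 and 289.8 CPM in *tup1 cyc8* (-1.04 ± 0.17) and missed the fold limit without wt replicate 1 (-0.99) or 2 (-0.90). *CHO2*, for a methyltransferase of phosphatidylcholine synthesis, had 225, 269 and 292 CPM in wt and 70.3, 85.1 and 103 CPM in *tup1 cyc8* (-1.60 ± 0.16), and *CHA1*, for serine deaminase, had a log2 fold change of -1.34 and was chosen after its values were seen.

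Of 91 Ty retrotransposon genes 50 had enough counts to be tested, and of these 27 were downregulated and 3 upregulated (median -1.15). All 91 together took 0.400% to 0.413% of the counts in wt and 0.0978% to 0.113% in *tup1 cyc8*. The 50 tested are all repeated, so single copies cannot be told apart by these counts. Of 72 snoRNA and snRNA genes tested, from a list of 79, 5 were upregulated (6.94%, under the 13.9% of all genes), among them *snR83* with 6423, 5975 and 5931 CPM in wt and 21074, 22419 and 19969.9 CPM in *tup1 cyc8* (log2 fold change 1.79 ± 0.12 (SE), edgeR adjusted p = 1.0e-05) and *snR19*, the U1 snRNA, with 3633, 3683 and 3709.5 CPM in wt and 7244, 9191 and 8434 CPM in *tup1 cyc8* (1.17 ± 0.13). The count of this list was 3 without wt replicate 1 or 2 or *tup1 cyc8* replicate 3, and 1 with library size alone.

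Upregulated genes were frequent near the chromosome ends. Within 30 kb of an end 145 of 342 genes tested (42.4%) were upregulated, against 671 of 5531 (12.1%) farther inside. Without genes repeated elsewhere the shares were 68 of 217 (31.3%) and 631 of 5320 (11.9%). The share was 50.2% within 20 kb and 31.5% within 50 kb. Of downregulated genes the shares were 2.05% within 30 kb and 1.90% farther inside. The *PAU*, *FLO*, *IMA*, *HXT* and *COS* families lie partly in these regions, but of 11 *COS* genes only *COS4* was called, while 4 were called without wt replicate 3 and 2 without *tup1 cyc8* replicate 2.

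**Figure D5:**
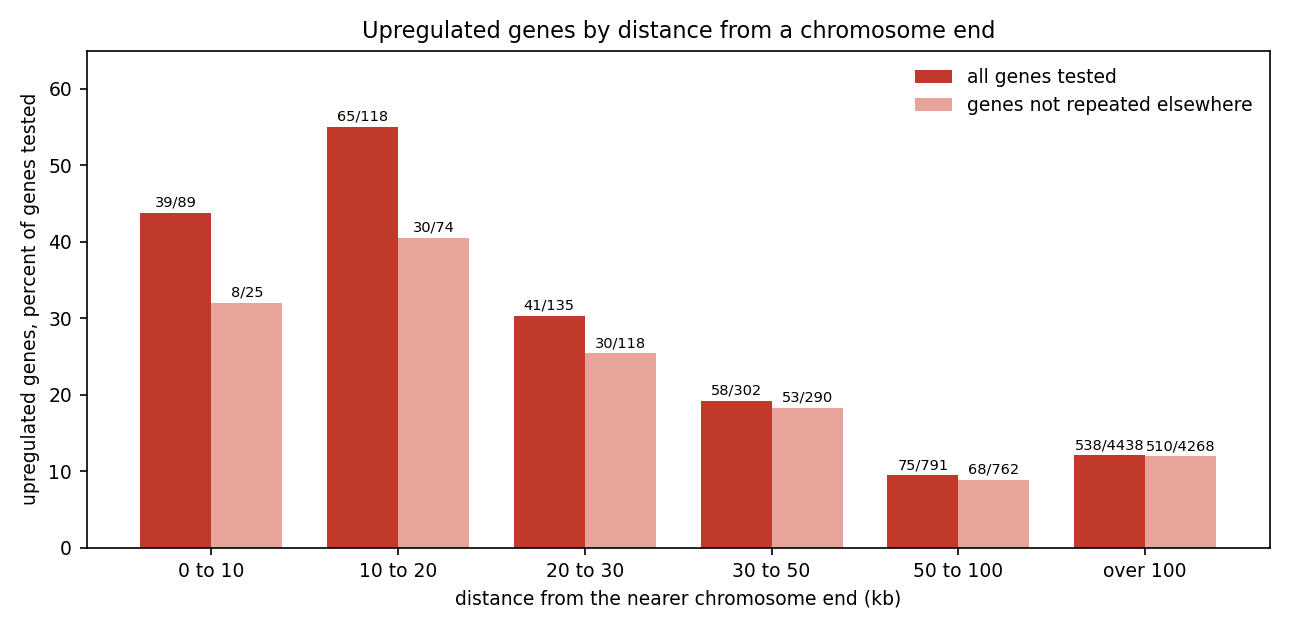
Percent of tested genes that were upregulated in *tup1 cyc8* (y axis) by distance from the nearer chromosome end in kb (x axis), for all genes tested (dark) and without genes repeated elsewhere in the genome (light), with the counts above the bars. The share was highest from 10 to 20 kb, 55.1% of 118 genes, and 12.1% of 4438 genes over 100 kb from an end.

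For 6 genes named above the double mutant was also set directly against the single mutants, in a fit of all 12 libraries without a replicate block. The limit was an adjusted p of at most 0.01, with no fold limit. At that limit 3.09% of genes were higher and 0.801% lower than in *cyc8*, and 9.26% higher and 4.62% lower than in *tup1*. The values against wt share the same wt libraries and are given side by side. *FLO11* had log2 fold changes against wt of 9.14 in the double mutant, 6.31 in *cyc8* and 3.51 in *tup1*. The double mutant lay above *cyc8* by 2.82 (edgeR adjusted p = 4.6e-05) and above *tup1* by 5.60 (edgeR adjusted p = 4.7e-07) on the log2 scale. *GAP1* had 5.79 in the double mutant, 3.80 in *cyc8* and 4.22 in *tup1*, and the double mutant lay above *cyc8* by 1.98 (edgeR adjusted p = 1.3e-05) and above *tup1* by 1.54 (edgeR adjusted p = 5.9e-05). For *FLO11* and *GAP1* the double mutant was thus the highest strain. Of the 5 flocculin genes 4 were higher than in *cyc8* and 4 higher than in *tup1*. Of the 27 genes for poor nitrogen sources, *GAP1* among them, 3 were higher than in *cyc8*, and 8 were higher and 1 lower than in *tup1*. *SUC2* had 6.29 in the double mutant, 5.43 in *cyc8* and 3.66 in *tup1*, with differences of 0.85 (edgeR adjusted p = 0.0021) from *cyc8* and 2.61 (edgeR adjusted p = 4.5e-07) from *tup1*. The difference of *SUC2* from *cyc8* did not pass without *cyc8* replicate 2 or 3 or *tup1 cyc8* replicate 1 or 3 (adjusted p of 0.013 to 0.020), nor in a fit of those 6 libraries alone (0.028).

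*RNR3* had log2 fold changes against wt of 6.62 in the double mutant, 6.70 in *cyc8* and 6.21 in *tup1*, and the double mutant differed from *cyc8* by -0.09 (edgeR adjusted p = 0.83) and from *tup1* by 0.38 (edgeR adjusted p = 0.23), neither past the limit. *URA1* had -2.03 in the double mutant, 0.08 in *cyc8* and -1.97 in *tup1*, and the double mutant differed from *cyc8* by -2.13 (edgeR adjusted p = 1.3e-05) and from *tup1* by -0.10 (edgeR adjusted p = 0.71). *PHO12* had -2.91 in the double mutant, -4.56 in *cyc8* and -1.03 in *tup1*, so its level in the double mutant lay between those of the single mutants, with differences of 1.64 (edgeR adjusted p = 0.0047) from *cyc8* and -1.91 (edgeR adjusted p = 7.1e-04) from *tup1*. The first of these did not pass without *cyc8* replicate 2 or 3 or *tup1 cyc8* replicate 3 (edgeR adjusted p of 0.013 to 0.019), and was 1.13 on the log2 scale without the last. In a fit of these 6 libraries its adjusted p was 0.025, and 0.018 with a replicate block. The number of genes that differ from *cyc8* turned on *cyc8* replicate 1: without it 397 were higher and 302 lower, against 185 and 48 with it.

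Genes often used as references did not pass the limits: none of the 5 reference genes was called, and *ACT1*, for actin, had 1595, 1812 and 1831 CPM in wt and 1797, 2238 and 2212 CPM in *tup1 cyc8* (log2 fold change 0.25, edgeR adjusted p = 0.13), with a sign that turns with library size alone (-0.22). Of 25 translation factor genes 1 was called, *HEF3* (1.35), and of 13 genes of RNA polymerase I and its factors 1, *RRN11* (-1.01), which was not called without wt replicate 1 or 2 or *tup1 cyc8* replicate 1 or 3 (-0.76 to -1.04).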

How the data were processed

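Strand-specific, rRNA-depleted RNA-seq of log phase cultures was deposited by the authors as whole-number counts of reads per gene, not normalized, in 1 table per mutant. Per the study's methods and the submitters' processing notes, reads were trimmed with Trimmomatic 0.36, aligned to the S288c genome with STAR 2.5.2b and counted with featureCounts of Subread 1.5.2. The strand setting and the build were not given in the sources used here, so reads of overlapping antisense genes may not be told apart. The authors' normalized values and DESeq2 results (fold changes and p-values) were not used.

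Of 6400 named genes, 6165 matched the R64 annotation, and coordinates, lengths and sequences are those of R64 (RefSeq). The line without a gene name held 0.117% to 0.307% of the counts and was left out. Genes that passed edgeR's filterByExpr were fitted with TMM scaling and the quasi-likelihood test over the 6 libraries (edgeR 4.0.16, limma 3.58.1, R 4.3.3), with Benjamini-Hochberg adjustment over the 5942 genes tested. The filter asks for enough counts only in as many libraries as a single strain has, so a gene near 0 in wt can pass through the double mutant alone. The SE of a log2 fold change is its size over the root of edgeR's F statistic. The same script was tested on simulated data. Genes are called repeated if more than 10% of their 31-base words have a second copy in the genome. Alternatives used DESeq2 1.42.0, other scalings, filters and samples.

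Named genes were the deleted and marker genes, the 10 largest changes in each direction by fold and by CPM, up to 4 called and 2 other members of each list, and members needed to describe a role; not every gene that the rule allows is named. Members and lists were chosen with earlier results of these data known, and 6 of the 62 lists were put together after values were seen. The wt libraries are shared by the mutant tables of the series. Replicates are labelled biological, with no word on separate starting colonies. Same-numbered *tup1* and *tup1 cyc8* libraries deviated together (r = 0.19, 0.33 and 0.22), so these may be paired. The direct values given are nonetheless from a fit without a replicate block. With a block no call of a gene set directly against *tup1* changed, and a blocked value of a gene is given only where it changes a call. The SE includes the spread between replicate libraries, while the limit of detection covers counting error only.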

Additional observations from a re-analysis of the deposited data

Results flagged for a closer look

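Reads on the table line that has no gene name, which no comparison used, were more frequent in *tup1 cyc8* replicates 1 and 3, at 0.197% and 0.307% of the counts, than in the wt libraries, at 0.117% to 0.134%. *tup1 cyc8* replicate 2 had 0.123%, within the wt range. The line does not say which features these reads come from.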

How the results depend on the processing

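The 824 upregulated and 112 downregulated genes became 478 and 32 under edgeR's glmTreat, which tests against a 2-fold change, and 556 and 753 with library size alone. Other settings gave 859 and 114 (DESeq2), 832 and 107 (RLE size factors), 835 and 110 (no filter), 764 and 107 (at least 10 counts in every library) and 825 and 121 (one fit of all 4 strains). Without genes repeated elsewhere in the genome 707 and 81 were left. When 1 library was left out the counts ranged from 734 to 868 and from 85 to 167. Same-numbered wt and *tup1 cyc8* libraries did not deviate together (r = -0.04, -0.05 and 0.08), and a replicate block gave 827 and 110. The replicate block changed no other call of a named gene than those of *ACO1*, *LEU4*, *SSA3* (past the limits) and *MET3* (adjusted p = 0.010), and that of *PHO12* against *cyc8* (adjusted p = 0.011).

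*ACT1* turned to -0.22 with library size alone, under which *ARG7*, *ATP2*, *COX5B*, *ERG1*, *HEF3*, *HXT1*, *MET10*, *MET3*, *RFX1*, *SDH3*, *SNF3* and *snR19* were not called. With glmTreat 43 of the 188 named genes carried through the settings lost their call: *ARG7*, *ATP2*, *CHA1*, *COX5B*, *CYC8*, *DHR2*, *ERG1*, *ERG28*, *ERG3*, *ESF1*, *GLT1*, *GND2*, *HEF3*, *HXK1*, *HXT1*, *IMD4*, *LEU1*, *LEU9*, *MAK16*, *MET10*, *MET3*, *MFA1*, *NOP16*, *PHO81*, *PTR2*, *PUF6*, *ROX1*, *RRN11*, *SDH1*, *SDH2*, *SDH3*, *SDH4*, *SNF11*, *SNF3*, *SPL2*, *TKL2*, *TPS2*, *TSL1*, *URA4*, *UTP6*, *VTC3*, *VTC4* and *snR19*. Of 124 counts over lists, 37 moved by over 1.5 times with glmTreat and 46 with library size alone. DESeq2 also called *SSA3* and *SSA4*. The difference of *RNR3* from *cyc8* turned to 0.0063, 0.00090 and 0.068 without *tup1 cyc8* replicate 2, *cyc8* replicate 2 and *cyc8* replicate 3 (lowest value -0.38 with 1 library left out), and that of *URA1* from *tup1* to 0.0023 and 0.057 without *tup1 cyc8* replicate 1 and *tup1* replicate 3 (lowest -0.27), all on the log2 scale.

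The direct comparisons used alternatives added after the data were seen. Against *cyc8*, 185 genes were higher and 48 lower, or 343 and 174 (DESeq2), 155 and 100 (library size alone), 128 and 12 (6 libraries) and 60 and 2 (6 libraries with a replicate block), with 119 to 397 and 20 to 302 when 1 library was left out. Against *tup1*, 555 were higher and 277 lower, or 792 and 485 (DESeq2), 300 and 1431 (library size alone), 659 and 394 (6 libraries) and 767 and 523 (6 libraries with a replicate block), with 321 to 410 and 100 to 175 when 1 library was left out.

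Depth limited low genes: 88 of the 164 genes tested with under 1 CPM in wt were upregulated, and fold changes there depend on few reads.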
